A study of Homo sapiens with 6 samples.

Results

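The NRF2 pathway was examined through 10 genes in HT29 cells, a human colorectal adenocarcinoma line with epithelial morphology. The genes were taken by symbol from the count tables, which list 28278 genes each. They are NFE2L2, which encodes the transcription factor NRF2, its inhibitor KEAP1, and the target genes NQO1, HMOX1, TXNRD1, SRXN1, OSGIN1, ABCC2, AKR1C1 and AKR1B10. All 10 passed the filter on low counts that left 15307 genes for testing. In siALDOA cells 6 of the 10 genes, all of them NRF2 targets, had a lower mRNA level than in siControl cells, by 16.6% to 34.3%, and 0 had a higher one. Of all tested genes 5.29% were lower and 4.36% higher. With scaling by library totals only, 3 of the 10 were lower, beside 1.82% of all tested genes. NFE2L2 itself, KEAP1, ABCC2 and AKR1C1 did not pass the test.

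The cells had been transfected with an siRNA against ALDOA, the glycolytic enzyme aldolase A (siALDOA, genotype labelled ALDOA KD), or with a scrambled siRNA (siControl, genotype labelled WT). RNA was isolated after 48 h from 3 biological replicates per group. Both groups share the cell line and the transfection, and the labels describe a single siRNA against ALDOA, so that loss of ALDOA and any other action of that siRNA cannot be told apart.

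NRF2 is a basic leucine zipper factor whose protein level is set mainly by degradation. KEAP1 binds NRF2 and, as the adaptor of a CUL3 ubiquitin ligase, presents it for destruction; electrophiles and oxidants modify cysteines of KEAP1, and NRF2 then accumulates. With a small MAF partner it binds antioxidant response elements and drives genes for quinone and carbonyl reduction, glutathione and thioredoxin metabolism, NADPH supply, iron handling and drug efflux. In the colon these enzymes meet dietary electrophiles and bile acids, and in tumours of several tissues the pathway is often overactive.

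The antioxidant response element was searched as TGACNNNGC and, on the other strand, GCNNNGTCA. The sites found in the promoters of the target genes and of KEAP1 are shown because NRF2 is known to act through this element. The first window was the RefSeq promoter of each gene (250 bases before to 50 after the transcription start), and the second reached from 1000 bases before to 50 after it. Capitals mark the element, each line reads 5′ to 3′ on the strand given, and positions are on hg38.
NQO1, chr16:69726997-69727025, minus strand, 455 bases before the start: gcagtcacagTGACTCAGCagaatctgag
TXNRD1, chr12:104215670-104215698, plus strand, 99 bases before the start: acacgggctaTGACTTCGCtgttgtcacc
TXNRD1, chr12:104215761-104215789, minus strand, 8 bases before the start: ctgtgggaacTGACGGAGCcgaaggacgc
TXNRD1, chr12:104286920-104286948, minus strand, 102 bases before a further start: agagtcagaaTGACAAAGCagaaatccac
OSGIN1, chr16:83952673-83952701, plus strand, 557 bases before the start: agacaatctgTGACTTGGCcccagttttc
KEAP1, chr19:10502784-10502812, plus strand, 31 bases before the start: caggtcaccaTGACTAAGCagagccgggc
KEAP1, chr19:10502807-10502835, minus strand, 54 bases before the start: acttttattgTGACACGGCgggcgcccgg
GCLM, chr1:93909446-93909474, plus strand, 34 bases before the start: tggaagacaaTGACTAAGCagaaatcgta
GPX2, chr14:64942849-64942877, plus strand, 122 bases before the start: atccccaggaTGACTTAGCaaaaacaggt

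Promoter entries were found for 8 of the 10 genes, not for HMOX1 and AKR1B10. In the 300-base promoter 2 of the 8 (25.0%), KEAP1 and TXNRD1, held the element, beside 2160 of 11344 tested genes with an entry (19.0%). In the longer window 4 of the 8 held it, beside 4716 of 11344 (41.6%). NQO1 and OSGIN1 joined in the longer window, and the letters were not in either window of NFE2L2, SRXN1, ABCC2 and AKR1C1. The element is thus common in windows of this length, and a match is no proof of a bound site. GCLM and GPX2, glutathione genes from a separate list of NRF2 targets, are shown because they were lower in siALDOA and hold a site in the 300-base promoter. GSTA4, GSTP1 and MGST1 of the same class also hold a site there and did not pass the test, with log2 fold changes below 0. ME1 and ABCB6 of that list, named after their values were seen, hold a site there too. Their log2 fold changes lay above 0, at 0.21 and 0.15, and did not pass the test. Of that list 17 of 34 genes with an entry held the element in the promoter and 24 of 34 (70.6%) in the longer window.

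The libraries held between 27277538 and 33237914 counts on genes. Ribosomal RNA genes took 7.71% to 13.1% of the siALDOA counts and 8.15% to 17.4% of the siControl counts. The targeted gene, ALDOA, had a level of 632 ± 38.2 CPM in siControl cells and of 289 ± 13.7 CPM in siALDOA cells (SD, n = 3 each). CPM are counts scaled to the library size with TMM factors. Colon epithelial markers (9 of 10 tested) summed to 9474.5 to 9806 CPM with siALDOA and to 10039 to 10600 CPM with siControl, with LGALS4 at 0 in all libraries, while fibroblast markers (2 of 8 tested) summed to 3.08 to 4.46 CPM and blood cell markers (3 of 8 tested) to 15.2 to 18.6 CPM over both groups, with COL1A2, CD3E and TYROBP at 0. The epithelial sum was lower in every siALDOA library than in any siControl library, and its part in the results was not tested. KRT8 and KRT18 made up most of this sum, and the markers did not move together, since edgeR called KRT18 lower and KRT19 higher. Over all tested genes, edgeR's quasi-likelihood test with Benjamini-Hochberg adjustment at 0.05 called 810 lower (5.29%) and 668 higher (4.36%) in siALDOA, 1478 in all (9.66%). Leaving out siControl replicate 2 or 3 reduced the 1478 to 849 and 834. Scaling by library totals alone, in place of TMM, gave 279 lower (1.82%) and 896 higher (5.85%) and moved the median log2 fold change of all genes to 0.075, whereas library totals without the ribosomal RNA genes gave 760 lower and 735 higher. CPM ranges of the groups did not overlap for 4233 genes (27.7%).

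Among the 10 genes the same test called 6 lower (background 5.29%) and 0 higher (background 4.36%). At an unadjusted p below 0.05, 7 were lower (background 12.3%) and 0 higher (background 11.3%), and DESeq2 and limma-voom likewise called 6 lower (background 6.84% and 5.11%) and 0 higher (background 5.72% and 4.11%). With library totals only, 3 were lower (background 1.82%), and NQO1, TXNRD1 and OSGIN1 lost their calls. The group ranges did not overlap for 7 of the 10 (background 27.7%). The median log2 fold change of the 10 was -0.37, and that of all tested genes was 0.0016. Summed over the 10 genes, the level was 1160.0, 1069 and 1109 CPM in the siALDOA libraries and 1324, 1376 and 1340 CPM in the siControl libraries, and NQO1 and TXNRD1 made up most of it. As these are bulk samples, fewer cells that express a gene and less RNA per cell cannot be told apart.

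**Figure D1:**
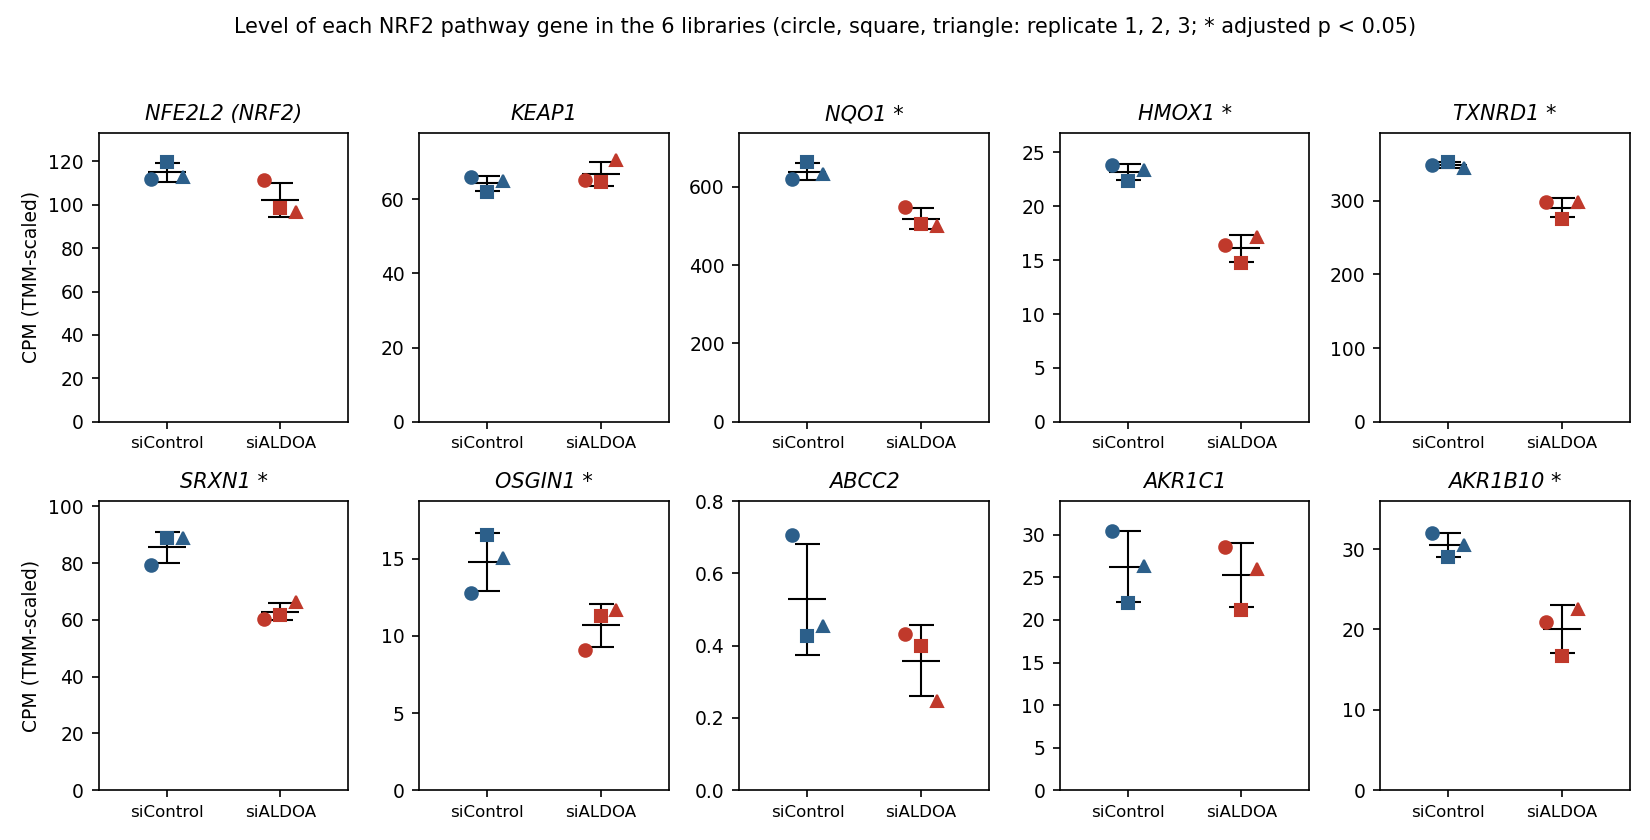
Level of each of the 10 genes in CPM (TMM-scaled, vertical axes from 0) in the 3 siControl (blue) and 3 siALDOA (red) libraries. Points are libraries (circle, square and triangle for replicates 1, 2 and 3), the long line is the mean and the bars are the SD. NQO1, HMOX1, TXNRD1, SRXN1, OSGIN1 and AKR1B10, marked with an asterisk, had all siALDOA points below all siControl points.

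NFE2L2 (chromosome 2, 177218667 to 177392756, minus strand) had levels of 111.3, 98.3 and 96.7 CPM in the siALDOA libraries and 111.8, 119.8 and 112.8 CPM in the siControl libraries. The groups did not overlap, but siALDOA replicate 1 was nearly as high as siControl replicate 1. The log2 fold change was -0.17 (95% interval -0.30 to -0.034), and edgeR gave an adjusted p of 0.109, so NFE2L2 was not called. Without siALDOA replicate 1 it was -0.24 with an adjusted p of 0.0115, and across all alternatives the adjusted p ranged from 0.0115 to 0.526. In the annotation 23.4% of the exon bases of NFE2L2 are shared with HNRNPA3 on the opposite strand, and the strand setting of the counting is not given in the sources used here, so part of the reads may come from either gene.

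KEAP1 (chromosome 19, 10486125 to 10503558, minus strand) had levels of 65.2, 64.5 and 70.4 CPM with siALDOA and 66.0, 61.9 and 64.9 CPM with siControl. The groups overlapped. Its log2 fold change was 0.054 (95% interval -0.080 to 0.19, adjusted p = 0.675 by edgeR), an interval that spans both directions.

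NQO1 encodes the NAD(P)H quinone oxidoreductase that reduces quinones without forming semiquinone radicals, and is a widely used readout of NRF2 activity. NQO1 (chromosome 16, 69706996 to 69726668, minus strand) had 549, 505 and 499.7 CPM in the siALDOA libraries and 619, 662 and 633 CPM in the siControl libraries. Every siALDOA library was below every siControl library. The log2 fold change was -0.30 (95% interval -0.42 to -0.18), a level 18.8% lower, with an adjusted p of 0.00191 in edgeR, and 0.0930 with library totals only. NQO1 shares 19.4% of its exon bases with a long noncoding RNA on the other strand, and its promoter site above lay outside the 300-base window.

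HMOX1 encodes heme oxygenase, the inducible enzyme that opens the heme ring and releases iron, biliverdin and carbon monoxide. The gene (chromosome 22, 35380361 to 35394214, plus strand) had 16.4, 14.7 and 17.2 CPM with siALDOA and 23.8, 22.4 and 23.4 CPM with siControl. The groups were well apart, the highest siALDOA library lying below the lowest siControl library by more than the spread within either group. HMOX1 had a log2 fold change of -0.53 (95% interval -0.72 to -0.33), a level 30.6% lower (edgeR adjusted p = 8.13e-04). HMOX1 kept its call in all 17 alternatives, between -0.58 and -0.45.

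TXNRD1 encodes the cytosolic selenoenzyme that reduces thioredoxin with NADPH. TXNRD1 (chromosome 12, 104215779 to 104350307, plus strand), whose promoters hold the 3 sites printed above, had 298.4, 275 and 298.3 CPM with siALDOA and 348, 353 and 344 CPM with siControl. The siControl libraries lay close together and all were above the siALDOA libraries. TXNRD1 had a log2 fold change of -0.26 (95% interval -0.38 to -0.15), a level 16.6% lower and the smallest change among the 6 called genes (edgeR adjusted p = 0.00383, and 0.155 with library totals only).

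SRXN1 encodes sulfiredoxin, which repairs overoxidised peroxiredoxins. SRXN1 (chromosome 20, 646615 to 653200, minus strand) had 60.5, 61.7 and 66.3 CPM with siALDOA and 79.3, 88.9 and 88.7 CPM with siControl. The groups did not overlap, and siControl replicate 1 was the lowest of its group. For SRXN1 the log2 fold change was -0.45 (95% interval -0.59 to -0.31), a level 26.6% lower, with the smallest adjusted p of the 10 genes in edgeR, 1.31e-04. Another protein-coding gene model on the same strand shares 90.7% of the exon bases of SRXN1, so the symbol under which such reads were counted is uncertain.

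OSGIN1 encodes an oxidative stress-induced growth inhibitor. OSGIN1 (chromosome 16, 83931311 to 83966332, plus strand) had 9.09, 11.3 and 11.6 CPM with siALDOA and 12.8, 16.5 and 15.0 CPM with siControl, from 253 to 505 counts per library. Replicate 1 was the lowest library of both groups, and the groups did not overlap. OSGIN1 had a log2 fold change of -0.47 (95% interval -0.73 to -0.21), a level 27.7% lower, with an adjusted p of 0.0196 in edgeR. This call was the least stable of the 6. The adjusted p rose to 0.0739 without siALDOA replicate 1, to 0.126 without siControl replicate 2 and to 0.0733 without siControl replicate 3, with the direction kept. On the same strand, the protein-coding gene MLYCD shares 8.22% of the exon bases of OSGIN1.

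ABCC2 encodes MRP2, the apical pump that exports glutathione and glucuronide conjugates. ABCC2 (chromosome 10, 99782640 to 99852594, plus strand) was close to the detection limit, with 12, 12 and 7 counts in the siALDOA libraries and 22, 13 and 15 counts in the siControl libraries. These are 0.431, 0.399 and 0.246 CPM with siALDOA and 0.706, 0.426 and 0.455 CPM with siControl, where 3 counts correspond to about 0.1 CPM, and the groups overlapped. For ABCC2 the log2 fold change was -0.55 with a 95% interval of -1.57 to 0.46 (edgeR adjusted p = 0.543), and a change of the size seen for the other targets was not detectable at this depth.

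AKR1C1 and AKR1B10 encode aldo-keto reductases, NADPH-dependent enzymes that reduce ketosteroids (AKR1C1) and aliphatic aldehydes and retinal (AKR1B10). AKR1B10 (chromosome 7, 134527567 to 134541412, plus strand) had 20.9, 16.7 and 22.6 CPM with siALDOA and 32.0, 29.0 and 30.5 CPM with siControl, with no overlap. Its log2 fold change of -0.61 (95% interval -0.82 to -0.40), a level 34.3% lower, was the largest change among the 6 called genes (edgeR adjusted p = 4.08e-04). It kept its call in the 17 alternatives that could change its value, between -0.70 and -0.49. AKR1C1 (chromosome 10, 4963253 to 4983283, plus strand) had 28.6, 21.2 and 26.0 CPM with siALDOA and 30.4, 22.0 and 26.4 CPM with siControl. The groups of AKR1C1 overlapped throughout, and within each group replicate 2 was the lowest library. The log2 fold change of AKR1C1 was -0.056 (95% interval -0.29 to 0.18, edgeR adjusted p = 0.820), and its sign turned in 3 of 18 alternatives.

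These reductases have close paralogs, between which reads can be misassigned. The coding sequence of AKR1C1 is identical to that of AKR1C2 at 98.04% of positions (19 of 969 differ), to AKR1C3 at 91.43% and to AKR1C4 at 88.54%. Of the 75-base words of its transcript 16.8% occur in a paralog. Such words are shorter than the paired reads of the study, so this is not the share of ambiguous reads. AKR1C3 (prostaglandin and androgen metabolism) held more counts than AKR1C1 in every library, 2121 to 2536 with siALDOA and 2904 to 3166 with siControl. AKR1C3 was lower in siALDOA, with a log2 fold change of -0.29 and an adjusted p of 0.0178 in edgeR. Its adjusted p was 0.122, 0.0731, 0.0662 and 0.0517 without siALDOA replicate 2, siALDOA replicate 3, siControl replicate 1 and siControl replicate 2. AKR1C2, with a log2 fold change of -0.26, did not pass the test (adjusted p = 0.302), and AKR1C4 had 1 to 12 counts per library. Summed over AKR1C1 to AKR1C4, the counts were 3783, 3072 and 3347 with siALDOA and 4754, 4047 and 4479 with siControl, and the log2 fold change of the sum was -0.24 (adjusted p = 0.0664). The values of AKR1C1 and AKR1C2 are therefore uncertain as single genes. AKR1B15, the nearest paralog of AKR1B10 with a coding identity of 85.85%, had 0 counts in all 6 libraries, so that adding it left AKR1B10 at -0.61.

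**Figure D2:**
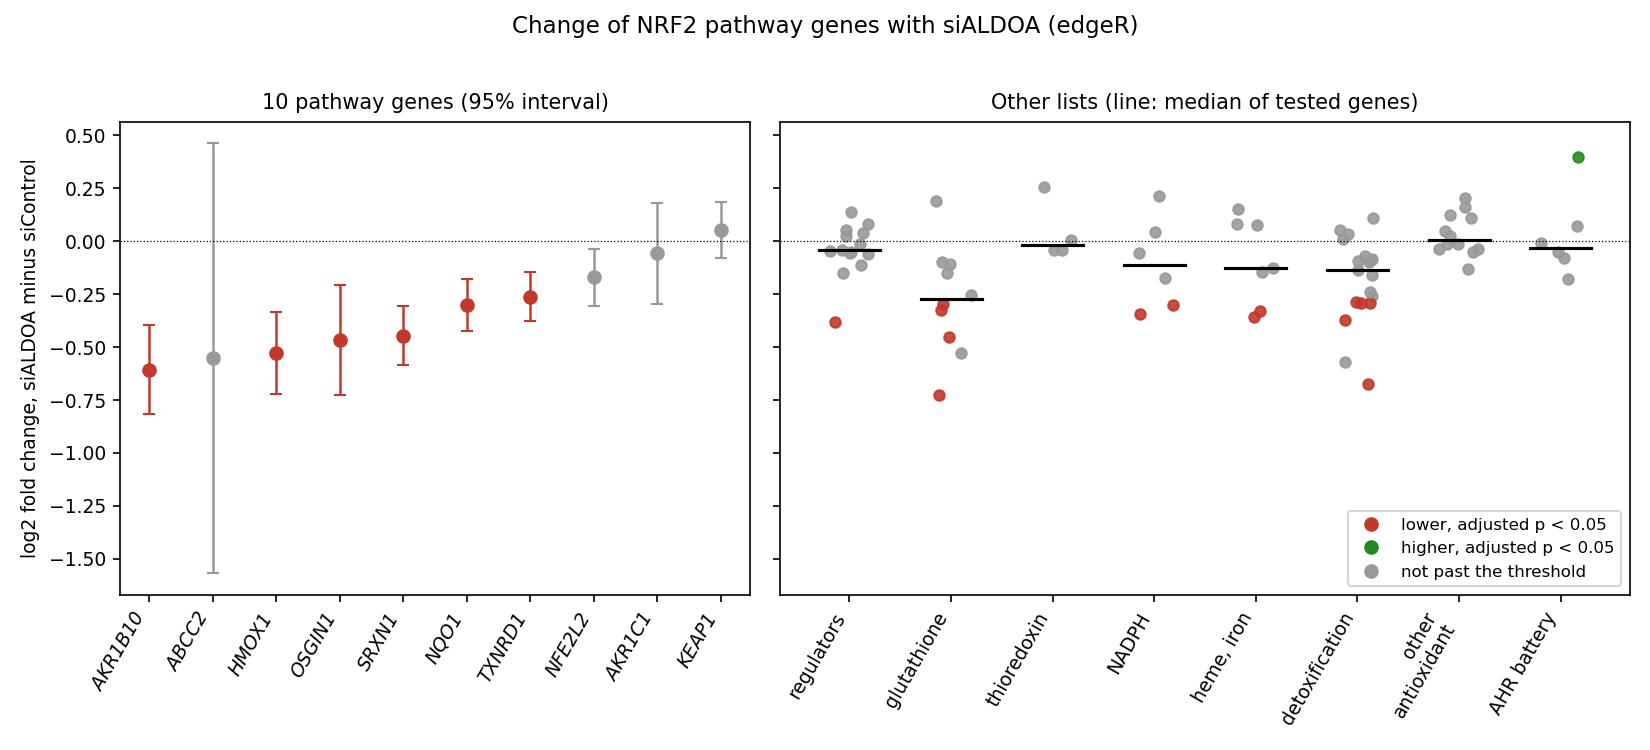
Log2 fold change of siALDOA minus siControl from edgeR, for the 10 genes with 95% intervals (left) and for the genes of the other lists, 1 point per gene with the median as a line (right). Red and green mark genes lower and higher at an adjusted p below 0.05. In the left panel 6 genes are red, and the interval of ABCC2, -1.57 to 0.46, is the widest. In the right panel 1 regulator, SQSTM1, and 13 other NRF2 targets are red, and 1 gene of the AHR battery, CYP1B1, is green.

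Compared per length of the canonical transcript, NQO1 had the highest level of the 10 genes, 253 ± 8.86 CPM per kb (SD, n = 3) in siControl. TXNRD1 followed with 90.3, NFE2L2 with 46.9, SRXN1 with 33.9, KEAP1 with 25.0, AKR1B10 with 18.8, HMOX1 with 14.9, OSGIN1 with 7.69, AKR1C1 with 4.01 and ABCC2 with 0.0911 CPM per kb. In siControl the ranges of neighbours in this order did not overlap. In siALDOA the ranges of SRXN1 and KEAP1 overlapped, with means of 24.8 and 26.0 CPM per kb, as did those of AKR1B10 and HMOX1, with means of 12.4 and 10.4 CPM per kb. The order depends on the length used. With the union of all annotated exons, NFE2L2 moved from rank 3 to rank 7, and AKR1C1 passed OSGIN1.

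**Figure D3:**
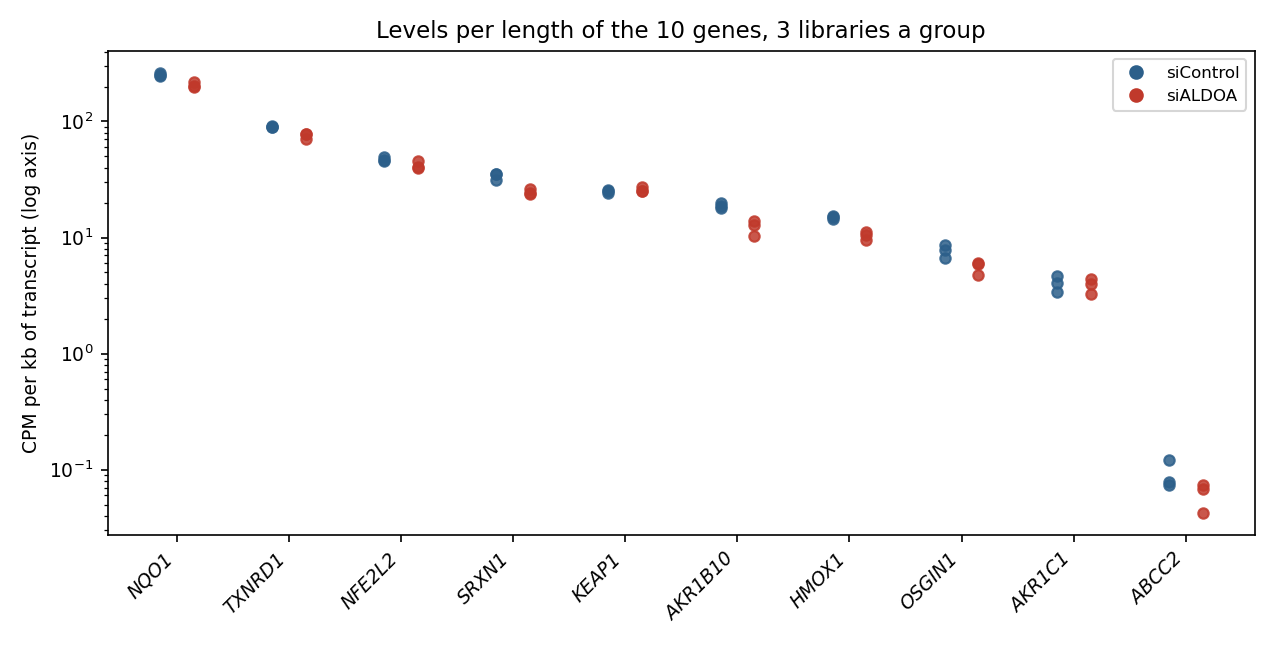
Level per kb of canonical transcript (CPM per kb, log axis) of the 10 genes, ordered by the siControl mean, with 1 point per library (siControl blue, siALDOA red, 3 each). NQO1 stands highest at 253 CPM per kb in siControl and ABCC2 lowest at 0.0911.

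The regulators and partners of NRF2 were examined as a list of 14 genes, all tested. Of these, 1 was lower (background 5.29%) and 0 were higher (background 4.36%; 0 also by DESeq2 and limma-voom), which is near the background. At an unadjusted p below 0.05, 2 were lower (SQSTM1 and PGAM5, the latter named after its value was seen; background 12.3%) and 0 higher (background 11.3%). The called gene was SQSTM1, which encodes p62, an autophagy receptor that sequesters KEAP1 and is itself an NRF2 target. SQSTM1 had 622, 676 and 683 CPM with siALDOA and 822, 874 and 883 CPM with siControl, without overlap. Its log2 fold change was -0.38 (SE 0.061, edgeR adjusted p = 2.65e-04), and it kept its call in every alternative. CUL3, the scaffold of the KEAP1 ligase, had a log2 fold change of -0.057 (adjusted p = 0.646). BACH1, a repressor that competes for the same elements, had a log2 fold change of 0.040 (adjusted p = 0.784), and MAFG, a small MAF partner of NRF2, had -0.041 (adjusted p = 0.733). The median over the 14 genes was -0.043.

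Other known NRF2 targets formed a list of 51 genes, of which 46 were tested. In edgeR 13 of the 46 (28.3%) were lower, beside a background of 5.29%, and 0 were higher, beside 4.36%. At an unadjusted p below 0.05, 19 were lower (background 12.3%) and 4 higher (GSS, GLRX, ME1 and ABCB6, named after their values were seen), a number no higher than the background of 11.3%. DESeq2 called 15 lower (background 6.84%) and 2 higher (background 5.72%), and limma-voom called 13 lower (background 5.11%) and 0 higher (background 4.11%). With library totals only, 3 were lower (background 1.82%) and 1 higher (background 5.85%). The median log2 fold change was -0.13. Without siALDOA replicate 2 the number called fell to 7, all lower, while the calls over all tested genes fell from 1478 to 1040.

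Of the 10 tested glutathione genes 4 were lower (background 5.29%), and 2 with library totals only (background 1.82%). SLC7A11, the cystine carrier of system xc-, had 218, 214 and 230.4 CPM with siALDOA and 357, 360.0 and 379 CPM with siControl. Its log2 fold change of -0.73 (SE 0.056, edgeR adjusted p = 1.38e-08) exceeded that of each of the 10 pathway genes. GCLM and GCLC, the modifier and catalytic subunits of the ligase that limits glutathione synthesis, fell by 0.45 (SE 0.072) and 0.30 (SE 0.062) on the log2 scale. GPX2, the glutathione peroxidase of the gut epithelium, fell by 0.33 (SE 0.066). With library totals only, GCLC and GPX2 did not pass the test (edgeR adjusted p = 0.0862 and 0.0909). GCLM and GPX2 are the genes whose promoter sites are printed above.

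The thioredoxin list had 0 of 4 genes called by edgeR, DESeq2 and limma-voom (background 9.66% in edgeR), with 1, GLRX, higher at an unadjusted p below 0.05 (background 11.3%). With 4 genes, these counts do not stand out from the background. TXN, the thioredoxin that TXNRD1 reduces, had a log2 fold change of 0.0049 (95% interval -0.16 to 0.17), and PRDX1, a peroxiredoxin, had -0.043 (95% interval -0.17 to 0.083). TXN and PRDX1 did not pass the test. Genes for NADPH supply lay on both sides of 0. PGD, the phosphogluconate dehydrogenase, fell by 0.30 on the log2 scale (SE 0.055), but its adjusted p in edgeR was 0.0804 with library totals only. ME1, malic enzyme, had a log2 fold change of 0.21 (edgeR adjusted p = 0.0601) with groups that did not overlap, and the median of the 6 genes was -0.11. Of 7 genes for heme and iron 2 were lower (background 5.29%), and 0 with library totals only (background 1.82%). BLVRA, BLVRB and ABCB6, named after their values were seen, lay above 0 at 0.080, 0.076 and 0.15 on the log2 scale and did not pass the test. FTH1, the ferritin heavy chain, had 2614, 2606 and 2750.5 CPM with siALDOA and 3251, 3288 and 3490 CPM with siControl, a log2 fold change of -0.33 (SE 0.077, edgeR adjusted p = 0.00819). FECH, the last enzyme of heme synthesis, fell by 0.36 (SE 0.096). In edgeR the adjusted p of FTH1 was 0.0527 without siALDOA replicate 2, and that of FECH was 0.0936 on leaving out the same library and 0.0775 and 0.0974 on leaving out siControl replicate 2 or 3.

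Of 19 tested detoxification enzymes and efflux pumps, the class closest to ABCC2 and the aldo-keto reductases, 5 were lower (background 5.29%), and 1 with library totals only (background 1.82%). ALDH3A1, an aldehyde dehydrogenase, had a log2 fold change of -0.67 (SE 0.15, edgeR adjusted p = 0.0073) at 4.23 to 5.82 CPM with siALDOA and 7.50 to 8.62 CPM with siControl. UGT1A6, a glucuronosyltransferase that shares exons with the other genes of its locus and is uncertain as a single gene, fell by 0.29 (SE 0.070), and ABCG2, an apical efflux pump, fell by 0.29 (SE 0.072). TRIM16L fell by 0.37 (SE 0.12, edgeR adjusted p = 0.0486), the weakest of these calls, and AKR1C3 is described above. Several of these calls were lost in edgeR when 1 library was left out. Leaving out a library also reduced the calls over all tested genes, from 1478 to between 834 and 1434. The adjusted p of ALDH3A1 was 0.0503 without siControl replicate 3. That of UGT1A6 was 0.0760 without siALDOA replicate 2 and 0.0627 without siALDOA replicate 3. For ABCG2 it was 0.0683, 0.0798 and 0.0501 without siALDOA replicate 2, siALDOA replicate 3 and siControl replicate 2. For TRIM16L it lay between 0.0614 and 0.254 without any 1 library other than siControl replicate 2, and it was 0.0671 with limma-voom. ABCC3, the basolateral counterpart of ABCC2, had 663 to 700.2 CPM with siALDOA and 700.3 to 739 CPM with siControl. Its groups narrowly did not overlap, and it did not pass the test, with a log2 fold change of -0.081 (95% interval -0.20 to 0.038).

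Antioxidant enzymes that are not classical NRF2 targets were set beside the pathway. Of 12 such genes, among them the superoxide dismutases and mitochondrial peroxiredoxins, 0 were called by edgeR, DESeq2 or limma-voom, beside a background of 9.66% in edgeR, and 1 (CAT, catalase, higher) had an unadjusted p below 0.05, beside a background of 11.3%. With 12 genes, these counts are near the background. Their median log2 fold change was 0.0067. Of 6 tested genes of the aryl hydrocarbon receptor (AHR) battery, which shares NQO1 and ALDH3A1 with the NRF2 pathway, 1 was higher (background 4.36%) and 0 lower, at any of these thresholds. The higher gene was CYP1B1, a cytochrome P450 that oxidises polycyclic hydrocarbons and estrogens, with 65.9, 57.7 and 62.0 CPM with siALDOA and 42.0, 46.9 and 51.7 CPM with siControl. Its log2 fold change was 0.40 (SE 0.078, edgeR adjusted p = 0.00188), opposite in direction to NQO1 and ALDH3A1.

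The genes with the most similar profile over the 6 libraries were found by Pearson correlation of log2 CPM among the 13723 tested genes whose mean reached 1 CPM. The coefficients are a description, since the 6 points carry the difference between the groups and the depth of each library. NFE2L2 was closest to MGST2 (0.997), a microsomal glutathione transferase on the list of NRF2 targets, ALDH3A2 (0.996) and MRPL42 (0.995). NQO1 was closest to RRAS2 (0.998), RTN3 (0.997) and ISL1 (0.997). HMOX1 was closest to CD55 (0.998), PIK3CG (0.997) and CARS1 (0.997), and AKR1B10 to F2RL1 (0.993), AVL9 (0.992) and NUDT4B (0.991). No other of the 10 genes appeared among these neighbours.

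For the 10 genes and the other targets, scaling was the choice that reduced the number of calls most. By library totals alone, 3 of the 10 genes, HMOX1, SRXN1 and AKR1B10, stayed lower, and NQO1 (-0.23), TXNRD1 (-0.19) and OSGIN1 (-0.39, adjusted p = 0.0680) kept their direction without passing the test in edgeR. When the ribosomal RNA genes were left out before scaling by totals, 6 of the 10 genes and 12 of the other targets were again lower.

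**Figure D4:**
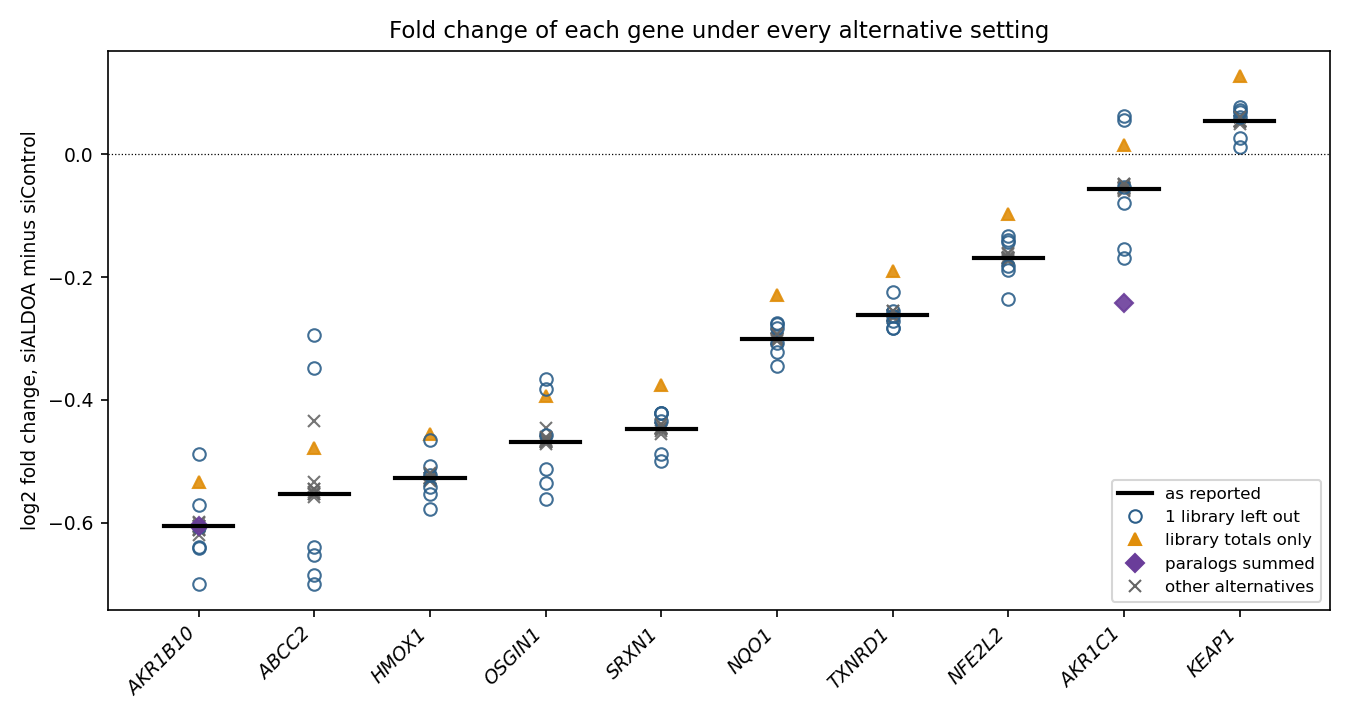
Log2 fold change of siALDOA minus siControl for each of the 10 genes as reported (black line) and under each alternative (points), with left-out libraries as open circles, library totals only as triangles and summed paralogs as diamonds. NQO1, HMOX1, TXNRD1, SRXN1, OSGIN1 and AKR1B10 stay below 0 under all of them. AKR1C1 alone ranges from -0.17 to 0.061, and the sum of AKR1C1 to AKR1C4 lies at -0.24.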

How the data were processed

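The data are RNA-seq counts of 3 siALDOA and 3 siControl libraries of HT29 cells. The authors used tophat2 for alignment to hg38 and gfold for counting per gene symbol; the deposited counts are whole numbers without normalization, 1 table per library. The annotation, strand setting and handling of multiply mapped reads are not given in the sources used here. Counts were filtered with filterByExpr, scaled by TMM and compared by edgeR 4.0.16 (quasi-likelihood F-test, R 4.3.3, limma 3.58.1), with Benjamini-Hochberg adjustment over all 15307 tested genes and calls at 0.05. Log2 CPM used a prior count of 2, SEs are the log2 fold change over the square root of F, and intervals are 95%. Totals were 27277538 to 33237914 counts, so 1 CPM is about 30 reads, and a count of 0 allows up to 3 counts, about 0.1 CPM (counting error only).

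Alternatives were limma-voom, DESeq2 1.42.0, the likelihood ratio test, library totals, upper quartile, no filter, a minimum of 10 counts in each library, a replicate block, no ribosomal RNA genes, thinning, each library left out, and summed paralogs. Library totals without ribosomal RNA genes was chosen after seeing the data. Coordinates and lengths come from GENCODE 44, promoters from RefSeq (GRCh38.p14, equal to hg38 at all 16257 promoters used), and sequences were searched with python 3.11.15. The scripts were tested on simulated data.

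The 10 genes and the lists were chosen with earlier results of these data known. Named genes were ALDOA, the 10 genes, called genes of the other lists, a few set regulators and targets whatever their p, and the 3 genes most like NFE2L2, NQO1, HMOX1 and AKR1B10; a target taken by this rule is not reported here. The labels call the replicates biological without naming separate cultures, so p-values measure the spread between these samples.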

Additional observations from a re-analysis of the deposited data

How the results depend on the processing

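Of the 22 genes taken by the rule for named genes that passed the test, ALDOA included, 8 passed under all 17 alternatives and 0 changed direction. Of the 10 genes, 6 were called under most settings, 3 with library totals only, 7 with the replicate block (NFE2L2, -0.17, edgeR adjusted p = 0.0468), and 5 to 6 when each library was left out. Of the other NRF2 targets 13 were called, all lower, 4 with library totals only (3 lower, 1 higher), 18 with the replicate block (15 lower, 3 higher) and 7 to 15, all lower, when each library was left out. Over all genes, 1478 calls became 2162 with the replicate block and 834 to 1434 when each library was left out. Same-numbered libraries of the groups deviated together only weakly (correlations of 0.123, 0.0765 and 0.0793 over 13724 genes), though each correlated best with its own number, so the numbers were not taken to pair the samples.

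Signs turned only among genes that did not pass the test. Library totals only moved the median of all tested genes from 0.0016 to 0.075, so that genes just below 0 turned with it. The log2 fold change was then 0.015 for AKR1C1, 0.014 for CUL3, 0.035 for MAFG and 0.030 for PRDX1. For TXN it was -0.0051 with limma-voom and -0.0029 with the replicate block. When each library was left out it ranged from -0.17 to 0.061 for AKR1C1, from -0.12 to 0.085 for TXN and from -0.015 to 0.089 for BACH1. ABCC2 had no value in DESeq2 or with at least 10 counts in every library. Depth limits ABCC2, with 7 to 22 counts per library.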
